A study of Zea mays with 5 samples.

Results

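The cytosines described here are the CG sites of a stretch of maize chromosome 9, read in a single bisulfite-ChIP library. They are all cytosines in CG context with at least 5 reads in the deposited methylation map, 5728 of the 43778 listed cytosines and of the 8941 listed CG cytosines. The library came from young leaves of maize Derivative 3-3, in which a de novo centromere had formed according to the series title. Chromatin was cut with micrococcal nuclease, precipitated with rabbit antiserum against CENH3, a variant of histone H3 found at working centromeres, and treated with bisulfite, which makes unmethylated C read as T. The number of plants pooled is not stated. The series also holds 4 RNA-seq libraries (control and Derivative 3-3, seedling and young leaf), not analysed here. Only 1 library measured methylation, without replicate or control, so no test between conditions could be made, every value describes these reads, and intervals cover counting error only.

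CG methylation in plants is kept by a maintenance methyltransferase, MET1 in Arabidopsis. After replication it recognises the methylated cytosine of the old strand and methylates the cytosine opposite it. A CG read on both strands, a dyad, gives a level for each strand. The levels come from different molecules and compare strand averages, not the strands of a molecule. CHG methylation (H is A, C or T) is kept by chromomethylases that bind methylated histone H3, and CHH methylation has no opposite cytosine in the same context to copy from. In maize most transposons carry dense CG and CHG methylation, while unmethylated stretches are often found at genes and regulatory sequence.

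The sites lay between positions 4301468 and 4587595 of B73 RefGen_v3, as the file counts positions, and carried 49693 reads, 5 to 33 per site with a median of 8. There were 2884 sites on the forward and 2844 on the reverse strand, which together mark 4355 CG dinucleotides. The median spacing between neighbouring dinucleotides was 13 bp (quartiles 6 and 30 bp), with 73 gaps over 500 bp and the largest at 20982 bp. No annotation of this build was used here, so the genes, exons or transposons at these positions are not named.

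Most CG sites were fully methylated and a small share had no methylation. A level of 100% was read at 3383 sites (59.1%) and a level of 0 at 334 sites (5.83%). Grouped by level, 4574 sites (79.9%, Wilson 95% interval 78.8 to 80.9) were high, at 80% or more, 799 (13.9%, 13.1 to 14.9) were intermediate and 355 (6.20%, 5.60 to 6.85) were low, at 20% or less. Pooled over reads, low sites stood at 1.09%, intermediate sites at 65.5% and high sites at 95.9%. Of the 355 low sites, 334 were read at exactly 0. Since the classes were set by level from these same reads, their pooled levels are a description.

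Depth moved with these shares. Intermediate sites made up 15.6% of the 3932 sites with 5 to 9 reads, 10.3% of the 1701 with 10 to 19 and 10.5% of the 95 with 20 or more. The rule's own threshold fell within a gradient, since CG sites with exactly 4 reads, just outside it, stood at 80.3% (79.3 to 81.3) and those with exactly 5, just inside, at 81.9% (80.8 to 82.8). Sites with exactly 3 reads stood at 76.1% and those with 6 at 85.4%. The part of depth in the levels was not tested.

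**Figure D1:**
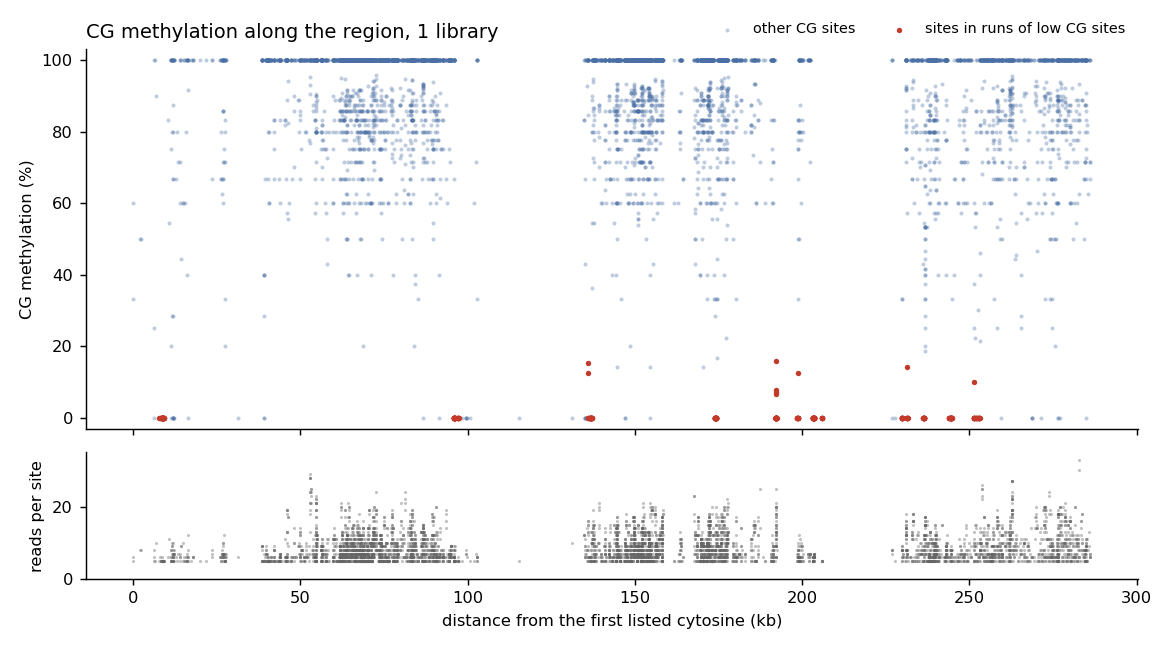
CG methylation (%, upper panel) and reads per site (lower panel) of the 5728 CG sites against distance in kb from the first listed cytosine. Each point is a site, and red points are the 296 sites in the 17 runs of low sites, which form narrow groups at the bottom while most other sites lie at or near 100%.

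Low CG sites were gathered in a few short runs. A run was taken as at least 5 consecutive CG sites of either strand at 20% or less, with no gap over 500 bp. The 17 runs held 296 of the 355 low sites (83.4%) and together spanned 6494 bp, 2.27% of the region. Their spans ran from 57 to 1411 bp with a median of 267 bp. Within them 287 of the 296 sites were at exactly 0, and 13 of 2326 CG reads were methylated (0.559%). In 12 of the 17 runs no CG read was methylated. Since the runs were chosen by CG level, their CG values are a description.

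The run with the most sites lay at positions 4493428 to 4493765, where 41 CG sites in 338 bp held 6 methylated of 548 reads (1.09%, Wilson 95% interval 0.503 to 2.37), at a mean of 13.4 reads per site. The highest of its sites stood at 15.8%, and 15 of its dinucleotides were full dyads, meaning at least 5 reads on both strands. At positions 4504542 to 4504933, 39 sites in 392 bp held 0 of 223 reads, which allows a level of up to 1.35%. Both runs were dense in CG, and the second was shallow, at a mean of 5.72 reads per site.

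The longest run covered 1411 bp from 4309252 to 4310662, with 0 of 147 reads methylated over 29 sites, which allows up to 2.04%. At 4437432 to 4438511, 25 sites held 4 of 199 methylated reads (2.01%, 0.784 to 5.05), and at 4545284 to 4546100, 25 sites held 0 of 165 (up to 1.82%). These 3 runs were the longest, and the next spanned 565 bp. Shorter and denser runs lay at 4397395 to 4397535, with 0 of 141 reads over 23 sites in 141 bp (up to 2.13%), at 4475492 to 4475805, with 0 of 241 reads over 20 sites (up to 1.24%), and at 4537676 to 4537954, with 0 of 140 reads over 16 sites (up to 2.14%). The remaining 9 runs held 5 to 13 sites each.

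Reads the run rule did not use gave the same picture. Inside the spans of the 17 runs lay 225 CG sites with only 3 or 4 reads, and 5 of their 771 reads were methylated (0.649%, Wilson 95% interval 0.277 to 1.51). Outside the runs such shallow sites stood at 84.2% (83.5 to 84.9, 2988 sites). They can share reads with the sites that set the runs.

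The strands offer a stricter reading, because a forward and a reverse site never lie on the same bisulfite read. When runs were set from forward sites alone, 10 were found, and the 56 reverse sites inside 7 of them held 3 methylated of 491 reads (0.611%, 0.208 to 1.78), against 85.7% over all reverse sites. When they were set from reverse sites alone, 12 were found, and the 59 forward sites inside 8 of them held 1 of 559 (0.179%, 0.0316 to 1.01), against 87.3% over all forward sites. Of the 56 reverse sites 55 were low, and of the 59 forward sites all were. The remaining single-strand runs had no site with 5 reads on the other strand, so the match could not be read there.

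The other contexts were also nearly unmethylated in the low runs. CHG cytosines there held 7 methylated of 2054 reads (0.341%, 233 sites) against 68.8% over the region, and each of the 17 runs was at 5% CHG or less. CHH cytosines held 17 of 3496 reads (0.486%, 417 sites) against 2.04% over the region. These cytosines were not used to set the runs but lie on the same reads. CG also made up a larger part of the cytosines in the runs, at 29.7% of listed cytosines against 20.4% over the region and 23.7% in the 291 runs of at least 5 high sites, although single low runs ranged from 8.22% to 45.2%.

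Outside the low runs, CG methylation returned to the regional level within a shorter distance than CHG methylation. CG sites 51 to 100 bp from the nearest run end stood at 54.8% (Wilson 95% interval 50.1 to 59.5, 39 sites), those at 101 to 200 bp at 73.4% (69.8 to 76.8, 71 sites) and those at 201 to 500 bp at 90.7% (88.6 to 92.5, 93 sites). Beyond 1000 bp the level was 91.4%. CHG cytosines stood at 10.2% from 1 to 50 bp (7.03 to 14.5), at 36.8% from 101 to 200 bp (32.9 to 40.9) and at 57.0% from 201 to 500 bp (53.3 to 60.6), against 73.5% beyond 1000 bp.

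That order is in part set by the definition, since a run ends where a CG site exceeds 20%, and the 18 CG sites within 50 bp (62.9%) are too few to rank. The value at 51 to 100 bp also leaned on a single place, the longest stretch of intermediate sites described below, without which it was 64.1% (57.8 to 69.97, 25 sites). CHH stood at 0.902% from 1 to 50 bp and at 4.73% (3.95 to 5.65) from 201 to 500 bp, above the 1.97% found beyond 1000 bp.

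**Figure D2:**
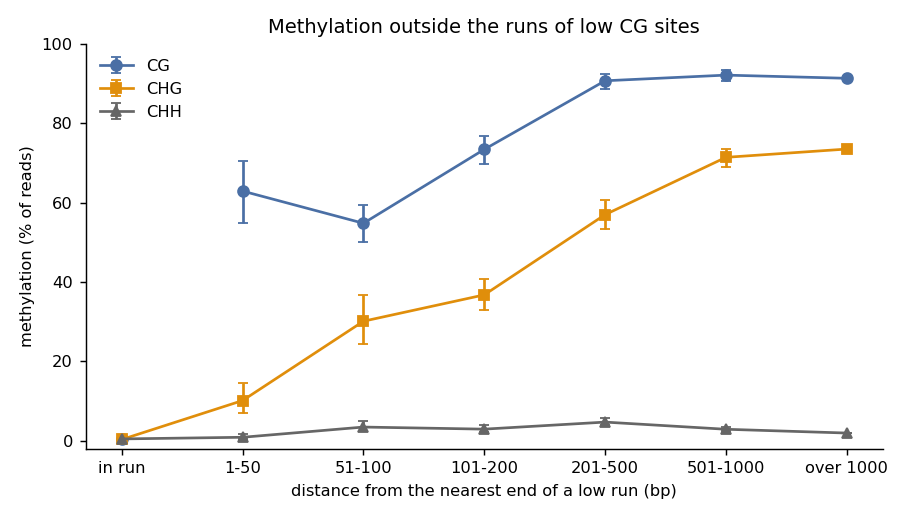
Methylation (% of reads, with Wilson 95% intervals) of CG, CHG and CHH cytosines inside the 17 low runs and by distance in bp from the nearest run end. CG stands at 90.7% from 201 to 500 bp, where CHG stands at 57.0%, and CHH stays under 5% in every class.

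Low sites outside the runs were mostly shallow, and some stood side by side in groups too small to count as a run. There were 59, with 5 to 18 reads and a median of 6, of which 50 lay over 500 bp from any run. While 33 stood singly, 26 lay in 9 groups of 2 to 4 consecutive low sites. The groups of 4 lay at 4401018 to 4401086 (0 of 28 reads methylated), at 4436365 to 4436377 (0 of 32) and at 4531443 to 4531463 (0 of 26). Only 20 of the 59 had a full dyad, and on the opposite strand 14 of those 20 were low too, 4 were intermediate and 2 high. Of the 35 with at least 3 other CG sites within 50 bp, 15 sat among sites that together stood at 80% or more.

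Most intermediate CG sites lay outside runs of at least 3 such sites. Shorter groups were not counted, and the share in runs expected from class frequency alone was not computed. Runs of at least 3 consecutive sites between 20% and 80% numbered 45 and held 164 of the 799 intermediate sites (20.5%), and 32 of the 45 had exactly 3 sites. Their median span was 27 bp and their levels ran from 35.3% to 77.1% with a median of 67.9%. In 22 runs all sites lay on a single strand. Sites on the same strand so close together can be covered by the same reads, so they are not separate measurements. The 22 CG sites with 3 or 4 reads inside 13 of these runs stood at 92.1% (Wilson 95% interval 83.8 to 96.3), above every run.

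Intermediate sites were more frequent beside the low runs. They made up 33.03% of the 221 CG sites within 500 bp of a low run (73 sites) and 13.9% of the 5211 sites farther away (726 sites). Without the longest stretch the first share was 26.6%. Of the 7 intermediate runs with at least 5 sites, 5 lay within 500 bp of a low run, as did 8 of all 45. The longest stretch, described next, holds 3 of these runs.

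The 5 longest intermediate runs had 8, 7, 7, 6 and 6 sites. Those at 4538076 to 4538100 (8 sites, 55.7%) and 4538010 to 4538041 (7 sites, 51.9%), with a run of 5 sites between them, formed a stretch of 91 bp that began 56 bp after the low run ending at 4537954. It held 22 CG sites, 20 of them intermediate, with 149 of 310 reads methylated (48.1%, Wilson 95% interval 42.6 to 53.6). The 11 forward sites ranged from 50% to 70.6% and pooled to 59.0% (51.4 to 66.2), while the 11 reverse sites ranged from 18.8% to 66.7% and pooled to 35.4% (28.1 to 43.5). The forward strand was the higher one in 10 of the 11 dyads. Since neighbouring sites share reads, these intervals are too narrow. Forward sites at 4538038, 4538041, 4538044, 4538047 and 4538050 each had 8 of 15 reads methylated. CHG stood at 45.4% in the stretch (19 sites), and 1 of 170 CHH reads was methylated.

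The runs at 4475913 to 4475924 (6 sites, 67.2%) and 4552850 to 4553226 (6 sites, 42.3%) lay 108 and 41 bp from low runs. Joined with a neighbouring run of 3 sites, the first made a stretch of 10 sites from 4475891 with 52 of 100 reads methylated, and there the strands were close, at 55.6% forward (41.2 to 69.1) and 49.1% reverse (36.4 to 61.9). The run at 4469291 to 4469334 (7 sites, 58.0%) differed from the other 4 in place, at 5961 bp from the nearest low run. Its strands stood at 57.4% and 59.1%.

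**Figure D3:**
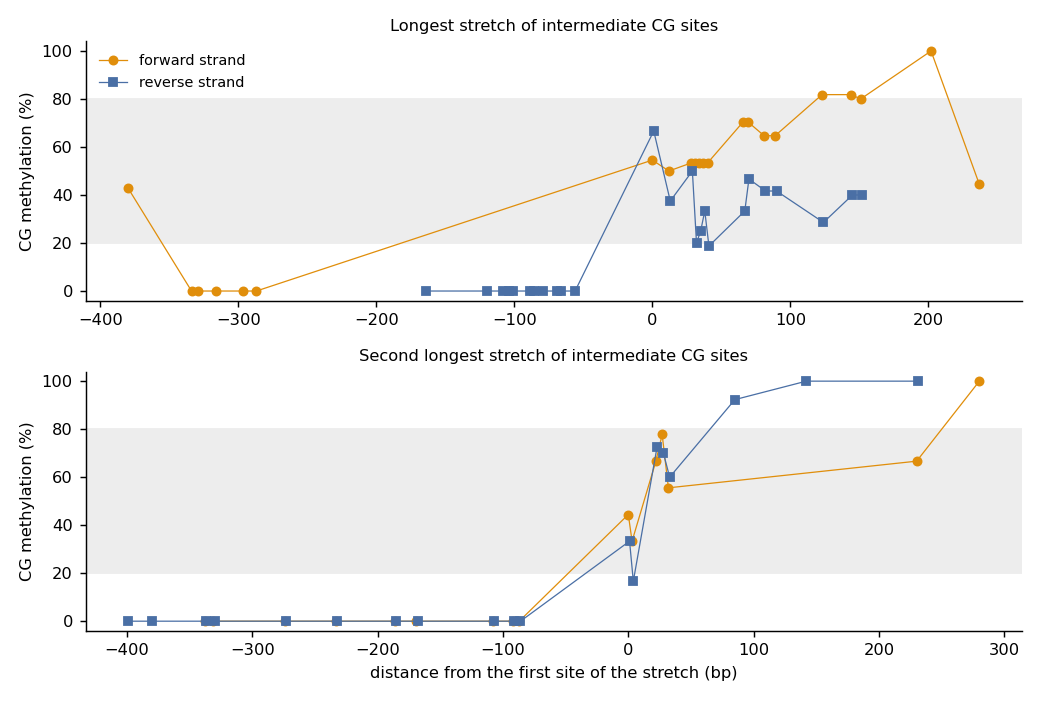
CG methylation (%) of single sites on the forward (circles) and reverse (squares) strand against distance in bp from the first site of the 2 longest stretches of intermediate sites. The grey band marks 20% to 80%. Both stretches follow a low run at 0, and in the stretch of the upper panel, from 0 to 90 bp, forward sites lie between 50% and 70.6% with reverse sites mostly below them.

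Intermediate runs were also read on the opposite strand. Runs of at least 3 intermediate sites were set from one strand and the level read on the other, as for the low runs. Over 500 bp from the low runs, the 53 reverse sites opposite forward intermediate runs stood at 90.7% (Wilson 95% interval 87.4 to 93.1) and 17.0% of them were intermediate, against 91.4% and 13.6% for all reverse sites so far away. The 38 forward sites opposite reverse runs stood at 88.8% (84.9 to 91.8) with 15.8% intermediate, against 91.4% and 14.3%. The opposite strand was thus close to its usual level there. Within 500 bp, the opposite sites stood at 52.9% (47.3 to 58.4, 26 sites, 3 runs) and 66.1% (59.0 to 72.6, 16 sites, 4 runs), and 61.5% and 75% of them were intermediate, against 72.95% and 79.5% with 33.3% and 32.7% intermediate for all sites of that strand outside the runs so near. Without the longest stretch these levels were 68.3% (60.8 to 74.9, 15 sites) and 71.4% (60.5 to 80.3, 9 sites), with 46.7% and 55.6% intermediate. The levels given for all sites so near still include that stretch, and they were not recomputed by strand without it. Over both strands, sites so near outside the runs stood at 81.1% (79.2 to 82.9) without the stretch, and 26.6% were intermediate.

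Dyads read at the minimum depth on both strands, full dyads, numbered 1373 and held 47.9% of the CG sites. For 1174 of the other 2982 sites the partner had 3 or 4 reads, and for 1808 it was not listed as a CG with 3 reads. Dyad sites stood at 87.2% (Wilson 95% interval 86.8 to 87.6) and the 734 non-dyad sites within 50 bp of a dyad at 87.6% (86.7 to 88.4). Set against its own non-dyad neighbours within 50 bp, a dyad differed by -1.54 ± 15.3 percentage points (mean and SD over 728 dyads). It was higher in 242, lower in 292 and equal in 194. The SD is that of single dyads, and whether the mean differs from 0 was not tested.

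The strands of a dyad did not differ on average. Forward levels had a mean of 87.3% and reverse levels of 87.3%, the difference was 0.02 ± 18.1 percentage points (mean and SD), and forward was higher in 400 dyads, reverse in 386 and neither in 587. Both strands were high in 960 dyads (69.9%), both low in 61 (4.44%) and both intermediate in 42 (3.06%). A high reverse strand faced an intermediate forward one in 151 dyads, the opposite held in 152, and a high strand faced a low one in 2. Classes matched most often where a strand was low. Of 68 dyads with a low strand, 89.7% were low on both. Of 350 with an intermediate strand, 12.0% were intermediate on both, and of 1265 with a high strand, 75.9% were high on both. Such shares depend on how common each class is, and the shares expected from class frequency alone were not computed. For the nearest opposite-strand sites that are not a dyad, the low, intermediate and high shares were 78.8% of 146 pairs, 10.6% of 592 and 76.4% of 2265. Among these 2456 pairs, 18 (0.733%) set a high site against a low one. The differences between dyads and neighbours in these shares were not tested.

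**Figure D4:**
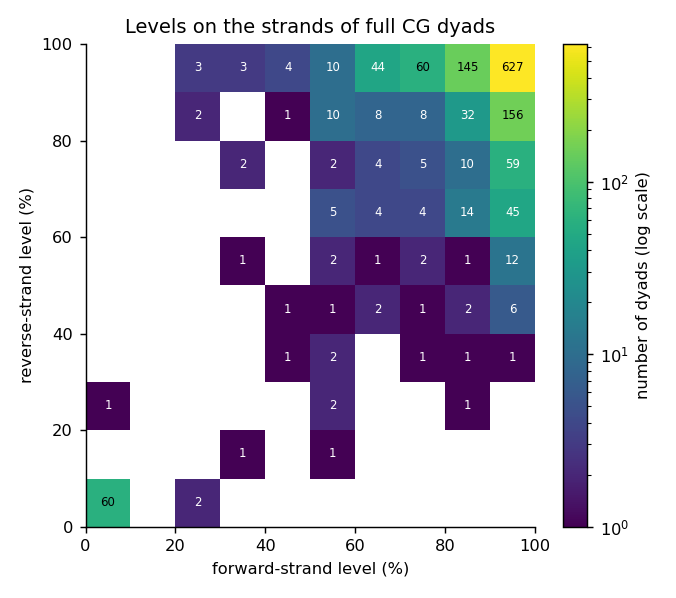
Number of full CG dyads (colour on a log scale, and printed) by forward-strand and reverse-strand level (%) in bins of 10 percentage points. Most of the 1373 dyads lie in the upper right and a separate group at 0 on both strands in the lower left, with bands along the top and right edges where a high strand faces an intermediate one.

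No dyad differed between strands at an adjusted p of 0.05 or less (two-sided Fisher's exact test on reads, Benjamini-Hochberg over all 1373, 0%). At an unadjusted p under 0.05 there were 31 (2.26%), with forward higher in 15 and reverse higher in 16. The same test on each CG site and its nearest non-dyad CG site on the opposite strand within 50 bp, 2456 pairs at a median of 11 bp, called 0 (0%) after adjustment and 60 (2.44%) before. Depth limited both counts. For a pair to be called alone, the exact test had to give p = 3.64e-05 among the dyads and 2.04e-05 among the neighbours. This was within reach of the reads of 520 dyads (37.9%) and 625 neighbour pairs (25.4%). Several pairs with small p could be called together at a larger p, so these shares are a lower bound. The calls therefore do not show whether dyads and neighbours differ equally often.

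The 5 dyads with the smallest p are given as the strongest candidates, none of which passed the adjustment (exact p from 0.00103 to 0.00699, adjusted p = 1 for each). At 4566894 the forward strand had 2 of 8 reads methylated and the reverse strand 11 of 11. At 4385285 the reads were 1 of 5 against 13 of 13, and at 4577044 they were 1 of 5 against 8 of 8, and these were the only dyads with a high strand opposite a low one. At 4474586 forward was the higher strand, with 20 of 20 against 5 of 9, and at 4445953 it was the lower, with 9 of 15 against 17 of 17. In 4 of these 5 dyads the forward strand was lower.

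Levels of neighbouring CG sites were alike at short distance, and r was lower with each step to 2000 bp on the same strand. For sites on the same strand, Pearson r was 0.88 at 1 to 5 bp (1299 pairs), 0.77 at 21 to 50 bp, 0.48 at 101 to 200 bp, 0.37 at 201 to 500 bp, 0.10 at 501 to 1000 bp and 0.02 at 1001 to 2000 bp. For sites on opposite strands that are not a dyad, r was 0.77 at 1 to 5 bp (702 pairs), 0.70 at 21 to 50 bp, 0.45 at 101 to 200 bp, 0.31 at 201 to 500 bp and 0.09 at 501 to 1000 bp. These r describe pairs of sites from 1 library that share sites, neighbourhood and, on the same strand, reads. The r of 1373 dyads was 0.70, no higher than that of opposite-strand neighbours within 50 bp that are not dyads (0.72, 8726 pairs).

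Differences in level were compared as well. The mean absolute difference was 11.6 percentage points within dyads, 10.9 between opposite-strand neighbours within 50 bp and 9.03 between same-strand neighbours. With the binomial counting variance of both sites subtracted from the mean squared difference, its square root was 12.7, 13.4 and 11.3 percentage points. For 1102 pairs of consecutive full dyads up to 50 bp apart, which set dyads against neighbours made of the same sites, opposite strands differed by 10.8 ± 10.02 percentage points within a dyad and 11.5 ± 12.2 across the pair (mean and SD). The gap, across less within, was 0.69 ± 8.89 percentage points (mean and SD of single pairs), and its mean was not tested. The difference was larger across in 106 pairs, larger within in 99 and equal in 897, where absolute differences sum alike by arithmetic. As the square root of the mean squared difference less counting variance, the values were 11.4 within a dyad and 14.1 across. The variance subtracted is the same on both sides, being that of the same sites. Squaring gives large differences more weight, and an equal amount taken off before the square root also widens the gap. The part of each in the wider gap on this scale was not tested.

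Most of this likeness, when measured as r, lay in and around the low runs. Among sites over 500 bp from any low run, r was 0.22 for dyads (1253), 0.02 for opposite-strand neighbours within 50 bp (7975 pairs) and 0.19 for same-strand neighbours (13390 pairs). The 0.22 in turn rested on 9 dyads with a low strand, of which 7 were low on both. Without low sites r was 0.01 for the remaining 1244 dyads, 0.00 for opposite-strand neighbours and 0.19 for same-strand neighbours, which still reached 0.38 at 1 to 5 bp. With at least 10 reads on both sites, r was 0.01 for dyads (166), 0.05 for opposite-strand and 0.19 for same-strand neighbours. Leaving out sites at low levels narrows the range of levels, which by itself lowers r. Differences within dyads changed little, with a mean absolute difference of 11.6 percentage points over all sites and 11.9 over 500 bp from low runs. The strands shared a class in 77.4% and 76.6% of those dyads.

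**Figure D5:**
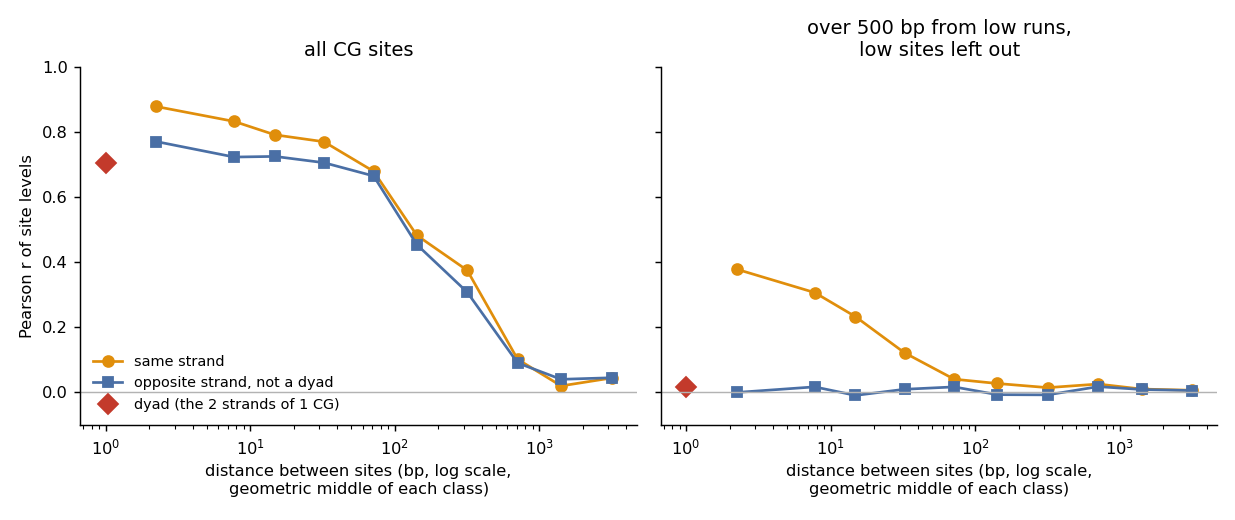
Pearson r between levels of CG sites against distance in bp (log scale) for pairs on the same strand, pairs on opposite strands that are not a dyad, and dyads. Over all sites (left) r lies between 0.70 and 0.88 up to 50 bp and is lower beyond 100 bp. Away from low runs and without low sites (right), same-strand pairs reach 0.38 at 1 to 5 bp and the others lie near 0.

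In classes, an intermediate forward strand told little about its partner away from the low runs. There the reverse strand was intermediate in 15.2% of 171 dyads with an intermediate forward strand and in 13.6% of 1073 with a high one. Outside the low runs but within 500 bp of them, 16 of the 26 dyads with an intermediate forward strand were intermediate on both, and r over all 65 such dyads was 0.70. The longest stretch held 9 of these 16. Without it 7 of 15 were intermediate on both, and r over the remaining 54 dyads was 0.63. Partial methylation was thus more often found on both strands beside the low runs, on few dyads. Intermediate sites were also more frequent there, at 33.03% of sites against 13.9% farther away. The share for dyads there with a high forward strand was not computed. Elsewhere the shares given were close at this depth, and an association was not tested in either place.

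CG spacing went with level once the low runs were set aside, a step that took low sites mainly from closely spaced CG. Outside the runs, sites whose nearest other CG dinucleotide was 2 to 5 bp away stood at 91.6% (Wilson 95% interval 91.2 to 92.0, 2014 sites), those at 21 to 50 bp at 88.5% (87.5 to 89.3, 581 sites) and those at 101 to 500 bp at 82.0% (78.1 to 85.3, 66 sites). The share of intermediate sites was 12.7%, 18.4% and 33.3% in those classes. Among sites with 5 to 9 reads it was 13.5%, 22.3% and 31.0%. Among those with 10 or more it was 10.996% and 8.18% in the first pair of classes, and 50% of only 8 sites in the last. Mean depth moved with spacing, at 8.87, 8.30 and 6.64 reads per site. Among sites with 10 or more reads the levels were 91.1%, 89.8% and 77.9%, the last from only 8 sites, and among sites with 5 to 9 reads 92.2%, 87.5% and 83.1%. Spacing was measured between sites with 5 reads, so a poorly covered neighbour counts as absent. The 14 sites with no CG within 500 bp, at 48.1%, had a mean of 5.5 reads. Setting the runs aside lowered the share of low sites from 7.71% to 0.745% at 2 to 5 bp, and from 4.48% to 3.03% at 101 to 500 bp. With the runs included, levels were 86.0% at 2 to 5 bp, 88.7% at 6 to 10 bp, 84.5% at 21 to 50 bp and 81.0% at 101 to 500 bp. The part of this step in the order of the classes was not tested.

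Counting neighbours, a related measure of spacing that was not split by depth, gave the same order once the low runs were set aside. Outside the low runs, sites with no other CG dinucleotide within 50 bp stood at 83.3% (81.3 to 85.1, 209 sites), those with 3 or 4 at 90.1% (89.5 to 90.6) and those with 8 or more at 92.6% (92.1 to 93.0, 1446 sites). With the runs included these classes stood at 81.5%, 86.7% and 86.5%, and dense CG was found both in low runs and in highly methylated sequence. The runs of high sites with most members lay at 4361279 to 4363179, with 56 sites at 97.5% (424 of 435 reads), and at 4578483 to 4580307, with 55 sites at 94.3%. The densest of the 5 longest high runs, at 4459454 to 4459643, held 45 sites in 190 bp at 97.0%. Over all runs of each kind there were 4.87 CG sites per 100 bp in the high runs and 4.56 in the low runs.

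CHG methylation followed CG class mainly through the low runs. CHG cytosines within 50 bp of a CG site in a low run stood at 1.46% (1.04 to 2.04), those near a low site elsewhere at 49.8% (47.2 to 52.4), those near an intermediate site at 68.6% (68.0 to 69.3) and those near a high site at 72.96% (72.5 to 73.4). These sets overlap, with 2503 CHG cytosines near intermediate and 4512 near high sites, of 5107 in all. The same cytosines and reads thus enter more than 1 class, and the intervals are not independent. Across 4714 CG sites with at least 3 CHG cytosines within 50 bp, r between CG and pooled CHG level was 0.69, and it was 0.26 for the 4460 outside the low runs. CG sites that are the inner cytosine of a listed CCG stood at 88.7% (88.1 to 89.2, 1454 sites), and those after a listed G at 88.0% (87.2 to 88.7, 909 sites). The rest, at 85.1% (84.7 to 85.5, 3365 sites), include sites whose preceding base had too few reads to be listed.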

How the data were processed

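Per the file headers, the authors' deposited map gives for each cytosine the strand, position, context, methylation level (a fraction), and raw counts of methylated and total reads, not normalized. CASAVA, the aligner BWA 0.6.1 and the build B73 RefGen_v3 are named in the submitters' processing notes. The methylation caller, the treatment of duplicates and of reads from repeats, the conversion rate and whether positions count from 0 or 1 are not stated there or in the labels. Repeat copies can enter levels or leave gaps.

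CG rows with at least 5 reads were kept, and levels recomputed as methylated over total reads. Strands were merged by position. Sites were called low at 20% or less and high at 80% or more. Runs allowed gaps of at most 500 bp, with at least 5 low or 3 intermediate sites. Pairs of sites were compared by two-sided Fisher's exact test with Benjamini-Hochberg adjustment, and counting variance was p(1-p)/(n-1) per site. Intervals are Wilson 95% intervals, and a count of 0 allows 3 counts. Without molecular identifiers, reads may be copies of a molecule, so intervals and limits cover counting error only. Low runs named are the 8 with most sites, intermediate runs the 5 longest, and dyads the discordant ones and the 5 smallest p. The Fisher tests and the counting-corrected difference were tested on reads simulated at the depths of these sites. These simulations did not copy the spread of levels found here. The run finder was tested on planted levels, without the 500 bp gap limit. Versions were scipy 1.17.1, pandas 2.3.3, numpy 2.4.6, matplotlib 3.10.9 and Python 3.11.15. Members and tests were chosen with earlier results of these data known. Reading runs on the opposite strand, splitting by distance from low runs, leaving out low sites or the longest intermediate stretch, and the splits of spacing were added after seeing the data.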

Additional observations from a re-analysis of the deposited data

How the results depend on the processing

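With a minimum of 3 reads the CG level was 85.0%, with 10 it was 87.7%, on the forward strand 87.3%, on the reverse 85.7%, and as a mean of sites 86.0%. High, intermediate and low sites made up 75.5%, 15.3% and 9.19% at 3 reads and 85.7%, 10.4% and 3.90% at 10. With classes at 10% and 90% the high and intermediate shares were 63.7% and 30.4%, and with 30% and 70% they were 85.9% and 7.65%. Low runs numbered 27 at 3 reads, overlapping all 17, and 3 at 10 reads, overlapping 3 of the 17. Between 16 and 19 were found under the other gaps and classes and without the outermost 10 kb or the 1% deepest cytosines. Intermediate runs numbered 80 at 3 reads and 11 at 10, 164 with classes at 10% and 90% and 10 with 30% and 70%, so their number rests on depth and class limits. Counting-corrected differences at 3 reads were 13.9 percentage points for dyads and 14.7 for opposite-strand neighbours, and at 10 reads 10.3 and 10.8, with 9.89 for same-strand neighbours. The r of dyads over 500 bp from low runs (0.22) was 0.015 without low sites, 0.011 with 10 reads, 0.70 over all sites and 0.31 without the low runs alone, alternatives chosen after seeing the data. The difference between dyads and neighbouring dyads kept its sign in each alternative run, at 0.41 to 0.79. Dyads differing between strands stayed at 0 in each. With 10 reads 1 neighbouring pair passed (4438510, 0 of 10, against 4438533, 9 of 10, Fisher's exact test, adjusted p = 0.0463, 389 pairs), where fewer pairs were tested. Values near the low runs without the longest intermediate stretch, added after seeing the data, stand beside them in the report. Causes were otherwise not tested. No paired analysis was possible because the series has 1 methylation library. Single sites, at a median of 8 reads, cannot show small differences.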
